A study of Komagataella pastoris with 6 samples.

Results

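Fatty acids are broken down in yeast by beta-oxidation inside peroxisomes. Activated fatty acids enter through a pair of ABC transporter half-molecules. An acyl-CoA oxidase then makes the first double bond and hydrogen peroxide, a multifunctional enzyme hydrates and oxidises the product, and a 3-ketoacyl-CoA thiolase cuts off acetyl-CoA. In *Saccharomyces cerevisiae* these proteins are Pxa1 and Pxa2, Pox1, Fox2 and Pot1, and their genes are induced by oleate. In methanol-grown *Komagataella pastoris* (*Pichia pastoris*) the same organelle is filled with alcohol oxidase, the first enzyme of methanol use. The genes described here are 7 of the 5030 listed: both subunits of the transporter, the oxidase, 2 genes described as the multifunctional enzyme, the thiolase and a peroxisomal acyl-CoA thioesterase, which releases free fatty acid and CoA. They were chosen by locus tag and product description, and were selected on a contrast already seen, the TPM values of HTX33_ILV3 set against those of HTX-33. Every comparison of the strains over these 7 genes is therefore a description. No p-value is printed for any of them, and how many passed the fit's threshold is given once, beside the same share of all genes.

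Messenger RNA came from 3 libraries of the engineered strain HTX33_ILV3 (ILV3 strain in the plots), which overexpresses Ilv3 (dihydroxyacid dehydratase of valine and isoleucine synthesis), and 3 of the control strain HTX-33 (control in the plots), whose genotype is given as WT. All 6 cultures were in a basic salt medium with 0.5% methanol and were harvested in exponential phase. The series calls the libraries biological replicates. The labels do not state the promoter or copy number of the Ilv3 construct, or whether the strain is a single clone. The values are named FPKM but sum to 1000000 in every library, as TPM does, and are treated as TPM, a share of transcripts scaled by length. The sum does not itself show that lengths were divided out, a limit on every comparison of levels between genes. The values keep no sequencing depth, which leaves counting error unknown. In a bulk culture fewer cells carrying a transcript and less of it per cell cannot be told apart. Log2 fold changes are of HTX33_ILV3 over HTX-33 of log2(TPM + 1) values, where the added 1 makes differences of weak genes look smaller. The overexpressed gene (PAS_chr1-4_0458) had 2564, 2680.1 and 2633 TPM in the HTX33_ILV3 libraries, against 88.0, 79.8 and 91.9 TPM in the HTX-33 libraries. An alcohol oxidase (PAS_chr4_0821) was the highest transcript of all 6 libraries, with at least 20873 TPM.

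Both transporter subunits, the oxidase, the more abundant multifunctional enzyme gene and the thiolase were lower in HTX33_ILV3, the thiolase most. The second multifunctional enzyme gene lay at the same low level in both strains, and the thioesterase was higher. Summed over the 7 genes the level was 396, 362 and 349 TPM in the HTX33_ILV3 libraries, against 743, 699 and 772 TPM in the HTX-33 libraries. The means were 369 ± 24.2 TPM in HTX33_ILV3 and 738 ± 36.5 TPM in HTX-33 (SD, n = 3 each). In the fit across all genes, 5 of the 7 were called lower and 1 higher at an adjusted p under 0.05, where 27.2% of 5025 tested genes were called lower and 22.1% higher (49.3% in all). The balance of directions over all genes depended on scaling and on 1 library: 44.9% of the called genes were higher, 54.1% with quantile normalization and 39.4% without HTX-33 replicate 2. The strains did not overlap in the same 5 lower genes and 1 higher gene, as they did not for 30.5% of tested genes (lower) and 26.8% (higher), 57.2% in all. All 7 passed the filter on low values. Because this contrast was known when the genes were chosen, nothing is read from these counts.

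**Figure D1:**
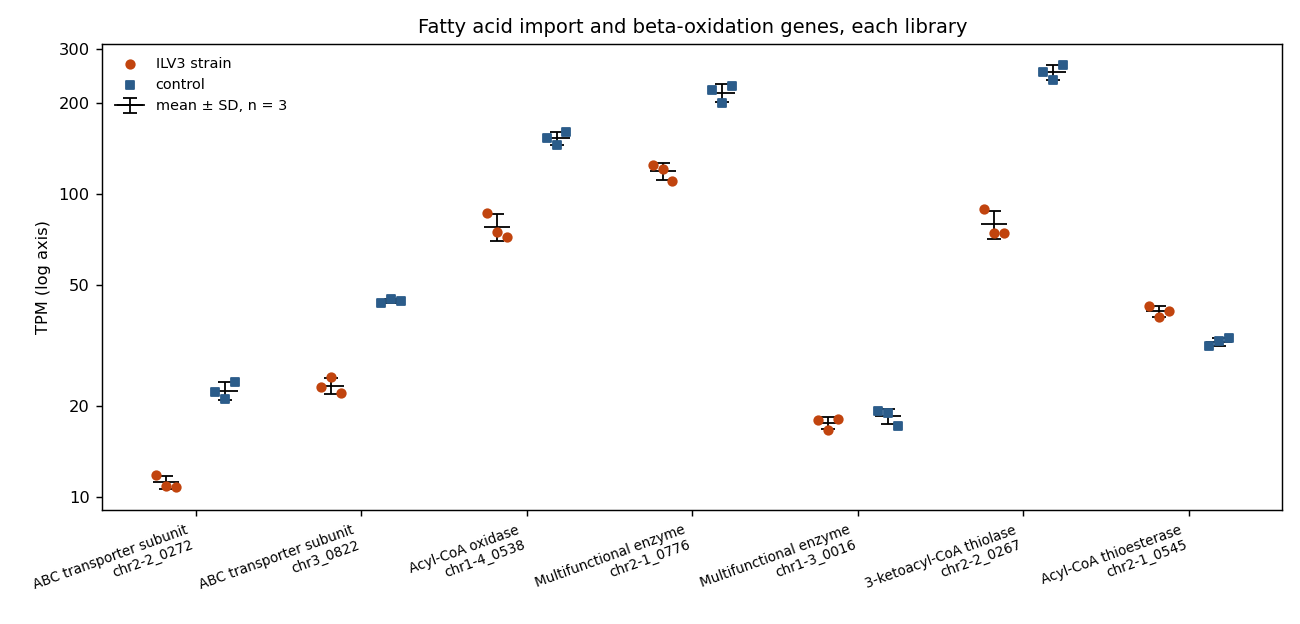
TPM (log axis) of the 7 import and beta-oxidation genes in each library, HTX33_ILV3 libraries as circles on the left and HTX-33 libraries as squares on the right of each gene, with the mean and SD (n = 3). The circles lie below the squares for both transporter subunits, the oxidase, PAS_chr2-1_0776 and the thiolase, overlap with them for PAS_chr1-3_0016 and lie above them for the thioesterase.

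The transporter subunits carry the same description, that of a heterodimer of Pxa1p and Pxa2p, which imports long-chain acyl-CoA in *S. cerevisiae*. gene-PAS_chr2-2_0272 had 11.8, 10.9 and 10.8 TPM in the HTX33_ILV3 libraries, against 22.1, 21.1 and 24.0 TPM in the HTX-33 libraries. Its log2 fold change was -0.94 (SE 0.08). The other subunit, gene-PAS_chr3_0822, had 23.1, 24.8 and 21.95 TPM in HTX33_ILV3, against 43.6, 44.9 and 44.4 TPM in HTX-33, with a log2 fold change of -0.90 (SE 0.06). In neither subunit did a library of one strain reach the range of the other strain. Inside a library the ratio of PAS_chr2-2_0272 to PAS_chr3_0822 was 0.48 ± 0.04 in HTX33_ILV3 and 0.51 ± 0.04 in HTX-33 (SD, n = 3 each), so the subunits kept about the same proportion, and these ratios overlapped between the strains.

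The oxidase (gene-PAS_chr1-4_0538), which catalyses the first step of the spiral, had 86.8, 74.7 and 71.9 TPM in the HTX33_ILV3 libraries, against 153, 145 and 161 TPM in the HTX-33 libraries. Its log2 fold change was -0.97 (SE 0.07), a mean of 51.0% of the control level. The multifunctional enzyme gene gene-PAS_chr2-1_0776, for the hydratase and dehydrogenase steps, had 125, 121 and 110.3 TPM in HTX33_ILV3, against 221, 199 and 227 TPM in HTX-33, with a log2 fold change of -0.86 (SE 0.06). Both genes were lower in every HTX33_ILV3 library than in any HTX-33 library. The oxidase to multifunctional enzyme ratio was 0.66 ± 0.04 in HTX33_ILV3 and 0.71 ± 0.02 in HTX-33 (SD, n = 3 each) and overlapped between the strains.

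The gene gene-PAS_chr1-3_0016 has the same product description as PAS_chr2-1_0776 but behaved differently. It had 17.9, 16.7 and 18.1 TPM in the HTX33_ILV3 libraries, against 19.1, 18.9 and 17.2 TPM in the HTX-33 libraries. The strains overlapped, and the log2 fold change was -0.07 (SE 0.07). As a ratio to PAS_chr2-1_0776 in the same library it stood at 0.144, 0.137 and 0.164 in HTX33_ILV3, against 0.0867, 0.0950 and 0.0758 in HTX-33. The minor gene thus made up a larger part of the pair in HTX33_ILV3, through the lower level of PAS_chr2-1_0776. The labels do not say how reads would be divided if the genes are similar in sequence.

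The thiolase (gene-PAS_chr2-2_0267), which closes the spiral, showed the widest difference of the 7 genes. It had 89.1, 74.3 and 74.4 TPM in the HTX33_ILV3 libraries, against 253, 238 and 266 TPM in the HTX-33 libraries. Its mean was 31.4% of the control level and its log2 fold change was -1.66 (SE 0.08). A lower log2 fold change was found for 0.716% of tested genes, against 2.59% for the oxidase, 2.71% and 2.95% for the transporter subunits and 3.32% for PAS_chr2-1_0776.

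The thiolase therefore stood in another proportion to the earlier steps. For each transcript of oxidase there were 1.03, 0.995 and 1.03 of thiolase in the HTX33_ILV3 libraries, against 1.66, 1.64 and 1.65 in the HTX-33 libraries. For each transcript of PAS_chr2-1_0776 there were 0.715, 0.613 and 0.675 of thiolase in HTX33_ILV3, against 1.147, 1.19 and 1.17 in HTX-33. Neither ratio overlapped between the strains, while the oxidase to multifunctional enzyme and subunit to subunit ratios did. These ratios use the same values that chose the genes.

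**Figure D2:**
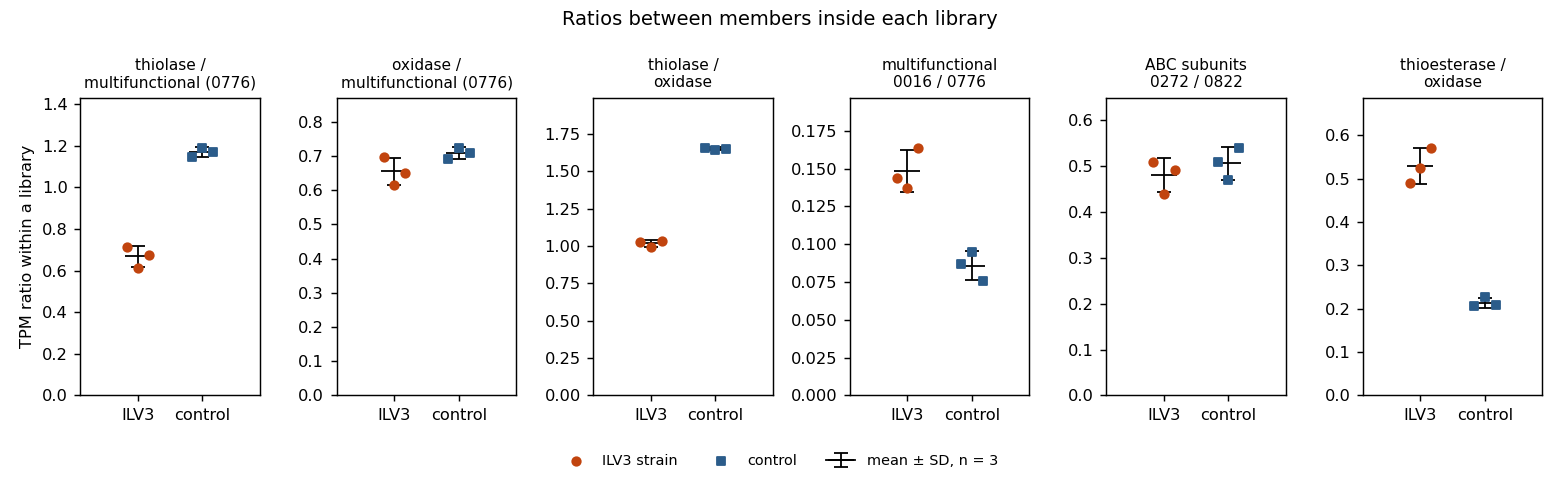
TPM ratios between genes inside each library, with HTX33_ILV3 libraries as circles on the left and HTX-33 libraries as squares on the right, and the mean and SD (n = 3). Ratios with the thiolase above the line were lower in every HTX33_ILV3 library, the ratio of the minor to the major multifunctional enzyme gene and that of thioesterase to oxidase were higher, and the oxidase to multifunctional enzyme and transporter subunit ratios overlapped between the strains.

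The thioesterase (gene-PAS_chr2-1_0545) went the other way. It had 42.5, 39.1 and 41.2 TPM in the HTX33_ILV3 libraries, against 31.4, 32.7 and 33.4 TPM in the HTX-33 libraries, with no overlap and a log2 fold change of 0.32 (SE 0.06). Relative to the oxidase it stood at 0.53 ± 0.04 in HTX33_ILV3 and 0.21 ± 0.01 in HTX-33 (SD, n = 3 each).

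The order of levels differed between the strains. In HTX33_ILV3 it ran from PAS_chr2-1_0776 through the thiolase, the oxidase, the thioesterase and PAS_chr3_0822 to PAS_chr1-3_0016 and PAS_chr2-2_0272. Of these neighbours in the order, the thiolase and the oxidase overlapped in range, and the other pairs did not. In HTX-33 the thiolase came first, followed by PAS_chr2-1_0776, the oxidase, PAS_chr3_0822, the thioesterase, PAS_chr2-2_0272 and PAS_chr1-3_0016, with no overlap between neighbours. Among all tested genes the oxidase lay above 66.0% in HTX33_ILV3 and above 80.3% in HTX-33, and PAS_chr2-2_0272 above 6.25% in HTX33_ILV3 and above 21.9% in HTX-33.

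Within each strain, most of the 5 lower genes shared the replicate in which they were highest and the replicate in which they were lowest. Within HTX33_ILV3, replicate 1 was the highest library for 4 of the 5 and replicate 3 the lowest for 4. Within HTX-33, replicate 3 was the highest for 4 of the 5 and replicate 2 the lowest for 4. These spreads were small beside the difference between strains: summed over the 5 genes, HTX33_ILV3 had 335, 306 and 289 TPM, against 692, 647 and 721 TPM in HTX-33. In the authors' deposited table the log2 fold change is -1.65 for the thiolase, -0.96 for the oxidase, -0.85 for PAS_chr2-1_0776, -0.99 for PAS_chr2-2_0272, -0.92 for PAS_chr3_0822, -0.04 for PAS_chr1-3_0016 and 0.35 for the thioesterase.

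The genes that work around this core were taken from 9 lists of product descriptions. The lists held 47 genes, all tested, of which 19 were called higher, 20 lower and 8 not, at a median log2 fold change of -0.09 (-0.02 over all tested genes). That is 40.4% higher, 42.6% lower and 83.0% called, against 22.1%, 27.2% and 49.3% of all tested genes, and each list's counts below stand against the same shares. The lists were drawn up with earlier results of these data known, so nothing particular to them is read from the counts. Levels are means ± SD over the 3 libraries of a strain, and adjusted p-values are from limma with Benjamini-Hochberg adjustment over all tested genes. In the plot, the auxiliary reductases PAS_chr2-2_0019 (-1.06), PAS_chr2-1_0249 (-1.01) and PAS_chr3_0086 (-0.81) lay near the lower core genes. So did genes of other lists, a peroxiredoxin (PAS_chr2-1_0502, -1.03), a steryl ester hydrolase (PAS_chr3_0252, -0.80) and a malate synthase (PAS_chr4_0191, -0.78). The reductases PAS_chr3_0975 (-0.41), PAS_chr4_0754 (0.08) and PAS_chr4_0338 (0.28) lay within the middle 80% of all tested genes. All 12 genes of peroxisome import and biogenesis lay there too.

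**Figure D3:**
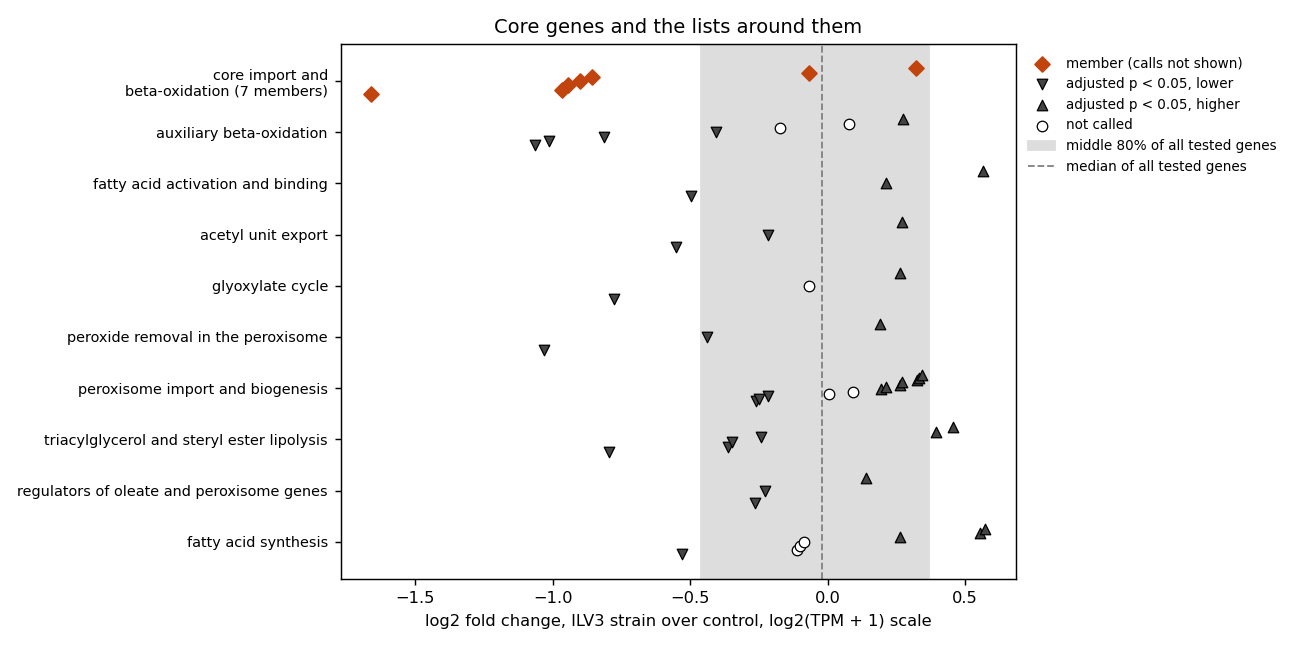
Log2 fold change of HTX33_ILV3 over HTX-33 for the 7 core genes (diamonds, calls not shown) and for the genes of the 9 lists around them (filled triangles where limma's adjusted p was under 0.05, pointing to the direction, and open circles otherwise). The grey band holds the middle 80% of all tested genes and the dashed line is their median of -0.02. The 5 lower core genes lie left of the band, and all 12 genes of peroxisome import and biogenesis lie within it.

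In auxiliary beta-oxidation, 4 of 7 genes fell (57.1%, against 27.2% of all tested genes) and 1 rose (14.3%, against 22.1%), with a median log2 fold change of -0.41. These are mostly described as peroxisomal 2,4-dienoyl-CoA reductases, which prepare unsaturated fatty acids for the spiral. PAS_chr2-2_0019 fell to 371 ± 4.66 TPM in HTX33_ILV3, against 777 ± 28.1 TPM in HTX-33 (log2 fold change -1.06, SE 0.04, adjusted p = 1.33e-07). PAS_chr2-1_0249 fell to 26.8 ± 1.51 TPM in HTX33_ILV3, against 55.0 ± 2.91 TPM in HTX-33 (log2 fold change -1.01), PAS_chr3_0086 fell to 143 ± 2.78 TPM in HTX33_ILV3, against 252 ± 3.54 TPM in HTX-33, and PAS_chr3_0975 fell to 198 ± 1.83 TPM in HTX33_ILV3, against 262 ± 5.15 TPM in HTX-33. The riser, PAS_chr4_0338, had 60.0 ± 1.06 TPM in HTX33_ILV3 and 49.4 ± 0.813 TPM in HTX-33. PAS_chr4_0754, the second most abundant of them in HTX-33, had 572 ± 7.03 TPM in HTX33_ILV3 and 542 ± 3.86 TPM in HTX-33 and did not pass (adjusted p = 0.105).

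In fatty acid activation and supply, 2 of 3 genes rose and 1 fell, where 22.1% of all tested genes were called higher and 27.2% lower. The long chain fatty acyl-CoA synthetase (PAS_chr4_0352), which makes acyl-CoA from free fatty acid, had 32.6, 31.3 and 27.6 TPM in HTX33_ILV3, against 45.6, 38.2 and 46.9 TPM in HTX-33, and fell by 0.50 on the log2 scale (SE 0.09, adjusted p = 0.00172). The peroxisomal adenine nucleotide transporter (PAS_chr4_0347), which brings ATP to fatty acid activation inside the organelle in *S. cerevisiae*, rose to 300 ± 12.8 TPM in HTX33_ILV3, against 202 ± 4.61 TPM in HTX-33. The very long-chain synthetase and fatty acid transporter (PAS_chr1-4_0080) had 24.6 ± 0.913 TPM in HTX33_ILV3 and 21.1 ± 1.48 TPM in HTX-33 (adjusted p = 0.0315). That call was lost with the replicate number as a block (adjusted p = 0.0607) and without any 1 library other than HTX-33 replicate 1 (0.0553 to 0.115). Its adjusted p ranged from 0.00619 to 0.115 over all settings.

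Lipolysis of triacylglycerols and steryl esters frees fatty acids from storage lipids. Of 6 genes listed for it by description, 4 fell (66.7%, against 27.2% of all tested genes) and 2 rose (33.3%, against 22.1%). Their median log2 fold change was -0.29, and not every description states a role in storage lipids. A steryl ester hydrolase (PAS_chr3_0252) fell to 18.4 ± 0.502 TPM in HTX33_ILV3, against 32.7 ± 1.56 TPM in HTX-33 (log2 fold change -0.80, SE 0.06, adjusted p = 1.05e-05). The triacylglycerol lipase of the lipid particle (PAS_chr2-1_0279) fell to 57.4 ± 3.17 TPM in HTX33_ILV3, against 74.0 ± 1.09 TPM in HTX-33. The risers were a serine hydrolase similar to monoglyceride lipase (PAS_chr3_0986), with 106 ± 3.14 TPM in HTX33_ILV3 and 77.1 ± 0.718 TPM in HTX-33, and the steryl ester hydrolase of the plasma membrane (PAS_chr2-1_0409), with 17.7 ± 0.482 TPM in HTX33_ILV3 and 13.2 ± 0.410 TPM in HTX-33. A lipase of the peroxisomal matrix described as inducible by oleic acid (PAS_chr1-4_0206), named after its values were seen, had 11.6 ± 1.01 TPM in HTX33_ILV3 and 11.2 ± 0.512 TPM in HTX-33 and did not pass (adjusted p = 0.738).

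Products of the spiral leave the peroxisome as acetyl units on carnitine, or enter the glyoxylate cycle. Of 3 carnitine genes, the inner mitochondrial membrane transporter (PAS_chr2-2_0355) fell to 94.8 ± 9.10 TPM in HTX33_ILV3, against 139 ± 0.789 TPM in HTX-33 (log2 fold change -0.55, SE 0.07, adjusted p = 0.000161). The acetyltransferase of the outer mitochondrial membrane (PAS_chr1-4_0074) fell to 162 ± 5.33 TPM in HTX33_ILV3, against 188 ± 2.75 TPM in HTX-33. The other carnitine acetyltransferase (PAS_chr3_0761) rose to 390 ± 21.5 TPM in HTX33_ILV3, against 323 ± 8.98 TPM in HTX-33. In the glyoxylate cycle, isocitrate lyase (PAS_chr1-4_0338) had 153 ± 12.6 TPM in HTX33_ILV3 and 160.3 ± 9.90 TPM in HTX-33 and did not pass (adjusted p = 0.454). Both genes described as malate synthase passed, in opposite directions. PAS_chr4_0191 fell to 157 ± 19.4 TPM in HTX33_ILV3, against 269 ± 5.74 TPM in HTX-33 (log2 fold change -0.78, SE 0.08, adjusted p = 5.73e-05), and PAS_chr1-4_0459, whose tag follows directly on that of the overexpressed gene, rose to 300.1 ± 1.72 TPM in HTX33_ILV3, against 250.1 ± 5.08 TPM in HTX-33 (log2 fold change 0.26).

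Hydrogen peroxide from the oxidase, and in these cells from alcohol oxidase as well, is removed by catalase A (PAS_chr2-2_0131). Catalase had 3982, 4214 and 4007 TPM in HTX33_ILV3, against 5688, 5131 and 5744 TPM in HTX-33, and fell by 0.44 on the log2 scale (SE 0.05, adjusted p = 0.000181). A thiol-specific peroxiredoxin (PAS_chr2-1_0502) fell to 2434 ± 39.2 TPM in HTX33_ILV3, against 4976 ± 44.3 TPM in HTX-33. A gene described only as peroxiredoxin (PAS_chr1-4_0547) rose to 8670 ± 348 TPM in HTX33_ILV3, against 7601 ± 181 TPM in HTX-33. Neither peroxiredoxin is placed in the peroxisome by its description.

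In peroxisome import and biogenesis, 7 of 12 genes rose (58.3%, against 22.1% of all tested genes) and 3 fell (25.0%, against 27.2%), with a median log2 fold change of 0.20. The receptor of the C-terminal targeting signal PTS1 (PAS_chr2-2_0186), which brings most matrix enzymes into the organelle, had 563, 555 and 537 TPM in HTX33_ILV3, against 454, 413 and 453 TPM in HTX-33, and rose by 0.33 on the log2 scale (SE 0.05, adjusted p = 0.000496). A peroxisomal membrane protein (PAS_chr2-1_0504) rose to 2307 ± 77.6 TPM in HTX33_ILV3, against 1815 ± 46.7 TPM in HTX-33, a RING-finger peroxin (PAS_chr4_0759) to 291 ± 7.15 TPM in HTX33_ILV3, against 231 ± 11.8 TPM in HTX-33, and an AAA-peroxin (PAS_chr1-4_0133) to 204 ± 5.04 TPM in HTX33_ILV3, against 169 ± 8.03 TPM in HTX-33. Peroxin 20 (PAS_chr2-1_0458), which in *P. pastoris* serves import of proteins with the N-terminal signal PTS2, had 60.8 ± 5.89 TPM in HTX33_ILV3 and 60.4 ± 1.70 TPM in HTX-33 and did not pass (adjusted p = 0.968). Of the 3 falls, that of PAS_chr1-4_0413 was lost with the block (adjusted p = 0.0506), with quantile normalization (0.0786) and without any 1 library other than HTX33_ILV3 replicate 2 or HTX-33 replicate 2 (0.0656 to 0.0954). That of PAS_chr3_0874 was lost without HTX-33 replicate 1 (0.0546) or replicate 3 (0.0524).

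Among 3 regulators, the catalytic subunit of the Snf1 kinase complex (PAS_chr2-1_0519), needed in *S. cerevisiae* to relieve glucose repression, fell to 30.2 ± 0.930 TPM in HTX33_ILV3, against 36.5 ± 1.89 TPM in HTX-33, and its gamma subunit (PAS_chr2-1_0608) fell to 112 ± 4.85 TPM in HTX33_ILV3, against 132 ± 7.31 TPM in HTX-33. A carbon source-responsive zinc-finger factor (PAS_chr4_0487) had 121 ± 4.49 TPM in HTX33_ILV3 and 109.7 ± 4.31 TPM in HTX-33 (log2 fold change 0.14, adjusted p = 0.0440). This call was lost with the block (adjusted p = 0.102), without a mean-variance trend (0.0662) and without any 1 library other than HTX33_ILV3 replicate 3 (0.0566 to 0.135), within a range of 0.00205 to 0.135. In fatty acid synthesis, the opposite route, 3 of 7 genes rose (42.9%, against 22.1% of all tested genes) and 1 fell (14.3%, against 27.2%), with a median log2 fold change of -0.09. Acetyl-CoA carboxylase (PAS_chr1-4_0249) rose to 310 ± 13.7 TPM in HTX33_ILV3, against 208 ± 11.1 TPM in HTX-33 (log2 fold change 0.57, SE 0.05, adjusted p = 2.95e-05), and the alpha subunit of fatty acid synthetase (PAS_chr1-4_0295) rose to 404 ± 23.6 TPM in HTX33_ILV3, against 275 ± 10.6 TPM in HTX-33. Of 2 genes described as the delta(9) desaturase, the abundant PAS_chr2-1_0072 rose to 6832 ± 222.1 TPM in HTX33_ILV3, against 5696 ± 86.3 TPM in HTX-33, and PAS_chr4_0259 fell to 54.8 ± 1.62 TPM in HTX33_ILV3, against 79.7 ± 2.95 TPM in HTX-33. Both elongases that did not pass, PAS_chr3_0236 and PAS_chr3_0602, were called lower without HTX-33 replicate 2 (adjusted p = 0.0244 and 0.0367).

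By their tags the 7 genes lie at 7 places. The closest are the thiolase and PAS_chr2-2_0272, 5 tag numbers apart with 3 listed genes between them. Of the 37 genes within 3 tag numbers of any member, 7 were called higher, 9 lower and 21 not, 43.2% called, against 49.3% of all tested genes. Their median log2 fold change was 0.01. Directly beside the thiolase, cytochrome c oxidase subunit VIII (PAS_chr2-2_0266) rose to 1944 TPM on average in HTX33_ILV3, against 1548 TPM in HTX-33. On the other side, PAS_chr2-2_0268, a hypothetical protein, had a mean of 5.13 TPM in HTX33_ILV3 and 3.64 TPM in HTX-33. It did not pass (limma, adjusted p = 0.0608). The least lowered of the 5 lower members was PAS_chr2-1_0776. At or below its log2 fold change was 1 of the 37 neighbours, against 3.34% of all tested genes. This neighbour was PAS_chr2-2_0273, next to a transporter subunit and named after its values were seen. It is described as required for ethanol metabolism and had 10.2, 11.4 and 10.6 TPM in HTX33_ILV3, against a mean of 25.6 TPM in HTX-33 (log2 fold change -1.18).

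**Figure D4:**
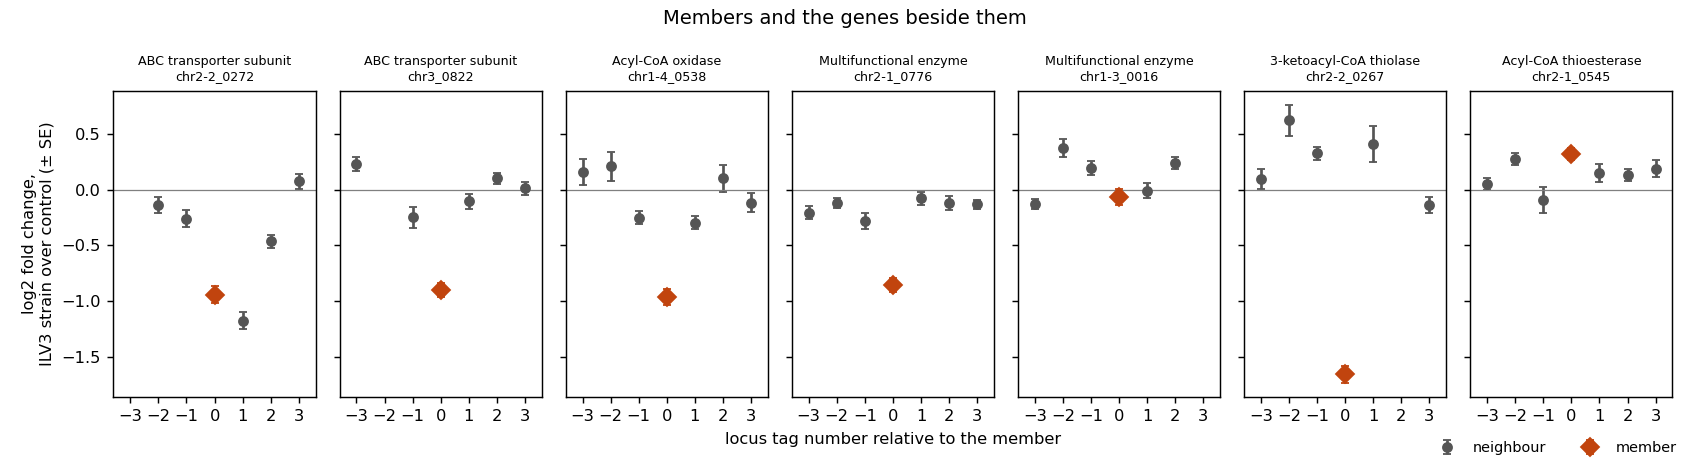
Log2 fold change (± SE) of HTX33_ILV3 over HTX-33 for each of the 7 genes (diamond) and for the genes within 3 locus tag numbers of it (circles). The diamonds of the oxidase, PAS_chr2-1_0776, PAS_chr3_0822 and the thiolase lie below all their neighbours, and beside PAS_chr2-2_0272 the gene with the next tag number lies lower still.

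Profiles over the 6 libraries were set against that of the oxidase by the root mean square distance of log2 values, each gene centred on its HTX-33 mean. This distance includes the difference between the strains, on which the members were chosen. Nothing is therefore read from how close the members lie to the oxidase. Among the other members, PAS_chr2-2_0272 lay at 0.05, with 2 of all tested genes closer, PAS_chr2-1_0776 at 0.10 with 20 closer and PAS_chr3_0822 at 0.11 with 48 closer. The thiolase lay at 0.49, PAS_chr1-3_0016 at 0.65 and the thioesterase at 0.91. Of 2719 other genes with a product name and a mean of at least 10 TPM, the nearest was a component of a complex containing Cef1p (PAS_chr1-4_0411), at 0.05. It had 39.6, 36.6 and 35.9 TPM in HTX33_ILV3, against 74.7, 72.7 and 79.9 TPM in HTX-33. The next were a plasma membrane ABC transporter (PAS_chr2-2_0299) at 0.06, a mitochondrial aldehyde dehydrogenase (PAS_chr4_0470) at 0.08, a protein that binds damaged DNA with Rad16p (PAS_chr2-2_0443) at 0.08 and a lysine permease (PAS_chr1-1_0341) at 0.09.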

How the data were processed

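Stranded mRNA libraries were sequenced from 3 cultures of each strain. The TPM values used here were made and normalized by the authors and deposited under the name FPKM, but every library sums to 1000000. HISAT2, TopHat2 and DESeq2 are named per the submitters' processing notes, while versions, roles, genome build and annotation were not given in the sources used here. Beside them the authors deposited a log2 fold change and a p-value for each gene, and the p-value was not used. Of 5030 tags, 0 matched the reference gene table, so names follow the deposited descriptions. The design was written for FPKM and kept. The 5025 genes averaging 1 TPM or more were fitted as log2(TPM + 1) in limma (version 3.58.1, under R 4.3.3), using a mean-variance trend and two-sided Benjamini-Hochberg adjustment, and were called at an adjusted p under 0.05. The fit was tested on simulated data. Members, lists and the naming rule were chosen with earlier results of these data known. The rule named members, the overexpressed gene, up to 4 called genes of each list, known partners and the 5 nearest profiles. Some further list genes and neighbours were named outside this rule. From the lists, 16 matches whose description gave another function were dropped. Same-numbered libraries of the strains deviated together weakly from their strain means (r across genes of 0.223, 0.126 and 0.209). Libraries of unlike number gave r of -0.22 to 0.04. The numbers may therefore pair the samples, but the labels do not say what a number shares. Calls and adjusted p-values are from the fit without the replicate number unless the block is named. That fit called 2478 genes, against 2211 with the block. Alternatives were other pseudocounts, filters, scalings and variance settings, the replicate block and each library left out.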

Additional observations from a re-analysis of the deposited data

How the results depend on the processing

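The members were selected on this contrast, so that the direction they keep in refits of the same values is no sign of stability. Over the 15 alternatives their log2 fold changes ranged as follows (thiolase -1.75 to -1.59, oxidase -1.05 to -0.90, PAS_chr2-1_0776 -0.91 to -0.77, PAS_chr2-2_0272 -0.999 to -0.76, PAS_chr3_0822 -0.95 to -0.80); the thioesterase ranged from 0.29 to 0.38 and PAS_chr1-3_0016 from -0.11 to -0.03. The median over the 7 genes was -0.90, and -0.80 with a pseudocount of 5, which shrinks weakly expressed genes by construction. Leaving out 1 library gave a median of -0.93 to -0.86. Genes called over the whole table numbered 2120 to 2773 (2478 as reported, 2211 with the replicate block; 44.9% of them higher as reported, 54.1% with quantile normalization and 39.4% without HTX-33 replicate 2), list genes called higher 17 to 20 and lower 18 to 22, and neighbours called 12 to 19. With the replicate number as a block, 17 list genes were higher and 19 lower, and 13 neighbours were called; the 3 list genes that lost their call are named beside their values, and no other list gene changed its call. Of 54 recomputed list and named genes, 47 kept their call under every alternative. PAS_chr3_0189, not called otherwise, was called higher with median-ratio scaling (adjusted p = 0.0216) and quantile normalization (0.00610). Depth is unknown, so it is not known how far counting error limits the weakest members.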
